A study of Mus musculus with 12 samples.

Results

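The cells described here are splenic B cells stimulated with lipopolysaccharide (LPS), a bacterial cell wall component, and compared between mice with both or 1 of the Ebf1 alleles floxed. The comparison holds the 3 arrays labelled LPS-StimB_flfl (Ebf1 fl/fl RERTCre) and the 3 labelled LPS-StimB_+fl (Ebf1 +/fl RERTCre, the heterozygote control), chosen by their titles, so 6 of the 12 arrays of the series. The other 6 arrays are resting B cells of the same genotypes, 3 each, used here for the spread and for the comparison between states. All mice were C57BL/6 and carried RERTCre, a Cre recombinase fused to an estrogen receptor that tamoxifen switches on, and all received 3 mg of tamoxifen citrate on 4 consecutive days and were killed on day 10. The controls were thus exposed to the same Cre and drug and keep 1 Ebf1 allele that is not floxed. RNA came from sorted spleen cells, and the treatment text names both a B220+AA4.1- gate and a B220+AA4.1-CD21lo gate without tying either to an array. Because Cr2 encodes CD21, the level of Cr2 and of genes that go with it can be set by the sort. The labels give neither the dose nor the length of the LPS stimulation. They also do not say that replicates came from separate mice, and the p-values then cover only the spread among these samples, which may be technical.

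EBF1 is a transcription factor that specifies the B lineage and keeps B cells committed to it. Its known targets include genes of the B cell receptor complex, the antigen receptor through which B cells signal, and of its precursor form. LPS is sensed through TLR4 with its partner MD-2 and drives mature B cells to activate NF-kB, grow, divide and differentiate towards antibody secretion. Marginal zone B cells, which carry much CD21 and depend on NOTCH2, are known to respond strongly to LPS, while follicular B cells rely on the BAFF receptor for survival.

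Values are on a log2 scale relative to the 75th percentile of the same array, so 0 is the signal of a bright probe and a difference of 1 is 2-fold. A gene is read from its brightest probe, differences are fl/fl minus +/fl, and a gene is called changed where limma's adjusted p (Benjamini-Hochberg over all 17127 genes) is under 0.05. In bulk RNA, fewer cells of a type and less RNA per cell cannot be told apart.

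Ebf1 itself was read by 2 probes. The probe for NM_007897 (chr11:44961616-44961675, mm7) gave 1.14, 1.33 and 1.26 on the fl/fl arrays and 1.21, 1.06 and 1.10 on the +/fl arrays after LPS. The groups overlapped, with a difference of 0.12 (SE 0.15, limma adjusted p = 0.675; exact two-sided permutation p = 0.2). The probe for AK036716 (chr11:44605869-44605928, mm7) gave -4.35, -4.14 and -4.59 against -2.61, -4.67 and -3.05. Here 1 control array lay below all fl/fl arrays, and the difference of -0.92 (SE 0.48) did not pass (limma adjusted p = 0.315; exact permutation p = 0.4, where 0.1 is the smallest that 3 against 3 arrays allow). The labels do not say which part of the gene is removed, and for that reason the probes do not test the deletion; both read above background on all 12 arrays.

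After LPS, 282 of 17127 genes (1.65%) were called, 148 higher in fl/fl (0.864%) and 134 lower (0.782%). Of all 17127 differences 9249 were positive and 7878 negative. Every list count below is to be read beside these shares. The split moved with the scaling: with arrays scaled by their median, which put the median difference of all genes at -0.48 in place of 0.04, 22 genes were higher and 172 lower, with quantile normalization 55 and 81, and with the authors' deposited values 53 higher and 82 lower. The genes called lower were bright: 131 of 134 were above background on all 6 arrays, at a median level of 1.93. The genes called higher were dim: 107 of 148 were above background on all 6 arrays, at a median level of -2.41, and 34 of them are known here by an accession only, against 6 of those lower. A single array moved with that difference. On fl/fl replicate 2, 83.2% of spots passed as well above background, where the other 11 arrays had 54.4% to 61.4%, and the dimmest 4282 genes had a median of -3.77 there, against -4.93 and -4.89 on the other fl/fl arrays and -4.96 to -5.13 on the +/fl arrays. Among those dimmest genes the median difference was 0.51, with 37 genes called higher and 3 lower, while among the brightest 4282 it was -0.14, with 17 higher and 61 lower. Without fl/fl replicate 2, 217 genes were called, 89 higher (0.52%) and 128 lower (0.747%), and 139 of the 282 were among them.

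**Figure D1:**
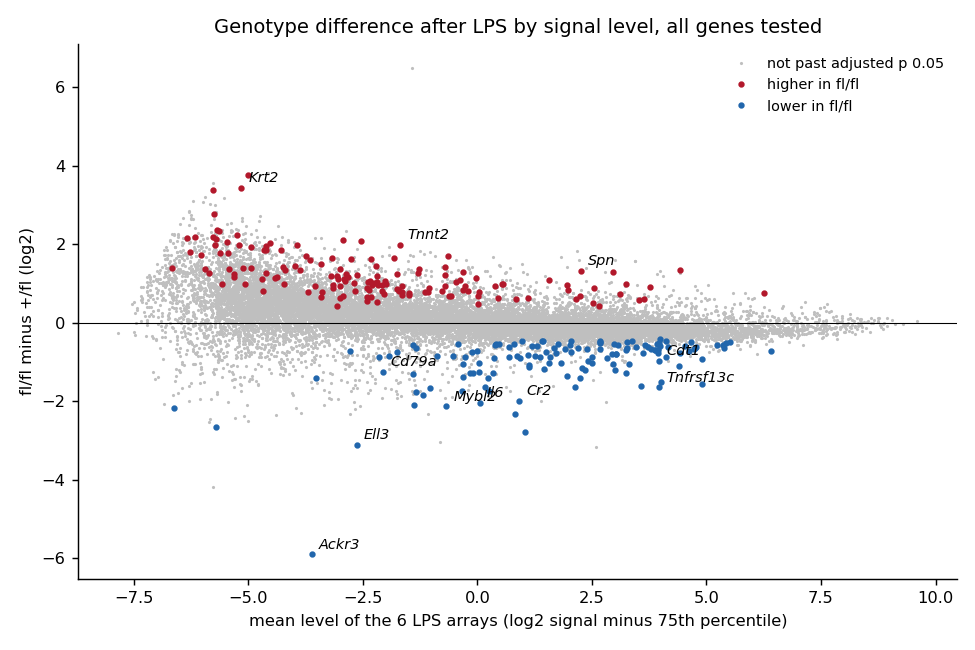
Difference between genotypes after LPS (vertical axis, log2, fl/fl minus +/fl) against the mean level of the 6 LPS arrays (horizontal axis, log2 signal minus the 75th percentile) for all 17127 genes, 1 point a gene, with the 148 called higher in red and the 134 called lower in blue. Blue points lie to the right, at a median level of 1.93, and red points to the left, at a median level of -2.41.

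The slide an array lay on nearly follows the genotype after LPS. Slide 3 holds fl/fl 1 and 2, slide 1 holds +/fl 2 and 3, and only slide 2 holds both genotypes, as fl/fl 3 and +/fl 1. With slide as a block 5 genes were called (0.0292%): Cr2, Tnfrsf13c and Gcat lower (0.0175%), Tnnt2 and AK078072 higher (0.0117%). With the block and without fl/fl replicate 2 there were 103 (0.601%), 26 higher and 77 lower. Over all genes, fl/fl 3 correlated at 0.987 with fl/fl 1 and at 0.970 with fl/fl 2, both on another slide, and at 0.980 with +/fl 1 on its own slide. Leaving out 1 array at a time also moved the count: 76 calls without fl/fl 1, 106 without fl/fl 3, 77 without +/fl 1, 38 without +/fl 2 and 15 without +/fl 3. Most calls below were lost without at least 1 of the 6 arrays, and the genes whose call held without each array in turn are named as such.

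Cr2, the complement receptor CD21 that lowers the threshold of the B cell receptor, had the smallest p of all genes. It stood at -0.06, -0.21 and 0.03 on the fl/fl arrays and at 1.69, 1.95 and 2.07 on the +/fl arrays. The groups did not overlap, as in 33.2% of all genes (15.3% with fl/fl higher and 17.9% with fl/fl lower), and Cr2 was 3.96-fold lower in fl/fl (log2 difference -1.98, SE 0.12, limma adjusted p = 0.000415). The call held without each of the 6 arrays and with slide as a block (-1.90, adjusted p = 0.021), and on slide 2 alone the difference was -1.66. A further Cr2 probe gave -0.79 (adjusted p = 0.0531).

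The BAFF receptor gene Tnfrsf13c, through which follicular B cells receive survival signals, was at 3.18, 3.35 and 2.90 on the fl/fl arrays and at 4.58, 5.05 and 4.75 on the +/fl arrays. All fl/fl arrays were below all controls, a 3.13-fold lower level (-1.65, SE 0.15, adjusted p = 0.00449). This call too held without each array and with the slide block (-1.72, adjusted p = 0.021). Its relatives did not pass: Tnfrsf13b, which encodes TACI, differed by -0.32 (adjusted p = 0.14) and Tnfrsf17, which encodes BCMA, by 0.71 (adjusted p = 0.72). Among the 16 measured members of the list of BAFF receptors and BCL2 family genes, 2 were higher and 1 lower, with a median of 0.10. The higher ones were the survival gene Bcl2, at 4.01, 3.83 and 3.98 against 3.43, 3.20 and 3.36 (0.61, SE 0.12, adjusted p = 0.0425), and Bcl2l11, which encodes the death promoter BIM, at 4.46, 3.85 and 4.36 against 3.35, 3.22 and 3.38 (0.91, SE 0.18, adjusted p = 0.0446). Neither group pair overlapped, and Bcl2 lost its call whichever array was left out. Other Bcl2 probes gave 0.81 (adjusted p = 0.012) and 1.03 (adjusted p = 0.0832). Further Bcl2l11 probes gave 0.53 (adjusted p = 0.111) and 0.44 (adjusted p = 0.534).

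The B cell receptor chains and co-receptors gave 3 lower and 1 higher of 17, with a median of -0.15. Cd79a, the Ig-alpha signalling chain and a textbook EBF1 target, was at -2.85, -2.49 and -2.74 on the fl/fl arrays and at -1.39, -1.67 and -1.26 on the +/fl arrays. It was 2.38-fold lower with no overlap (-1.25, SE 0.16, adjusted p = 0.0132). Vpreb3, whose product binds newly made immunoglobulin chains, was at -2.42, -1.73 and -2.21 against -0.43, -0.43 and 0.03, so 3.58-fold lower (-1.84, SE 0.26, adjusted p = 0.0161). Fl/fl replicate 2 was the highest of its group for both genes. A further Vpreb3 probe gave -1.06 (adjusted p = 0.212). Lair1, an inhibitory collagen receptor, went the other way, at 0.13, 0.35 and 0.13 against -1.65, -1.27 and -1.59 (1.71, SE 0.33, adjusted p = 0.0421), and lost its call whichever array was left out. Other Lair1 probes gave 2.10 (adjusted p = 0.0206) and 1.40 (adjusted p = 0.069). The partner chain Cd79b (-0.78, adjusted p = 0.0625), Cd22 (0.28), Ms4a1, which encodes CD20 (0.12), Pax5 (-0.05) and Ptprc, which carries the B220 epitope (0.07), did not pass. Of the gate's marker genes, Cd93, which encodes AA4.1, differed by -0.30 (adjusted p = 0.549). All 7 B cell markers read above background on all 6 arrays. None of the 18 B-lineage transcription factors and none of 25 B cell receptor signalling genes passed, with medians of 0.00 and 0.07; the nearest were Ikzf3 (-0.44, adjusted p = 0.14, with 2 further probes at 0.62 and 0.30) and Irf4 (-0.50, adjusted p = 0.18) among the factors and the kinase gene Blk (-0.84, adjusted p = 0.0739).

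**Figure D2:**
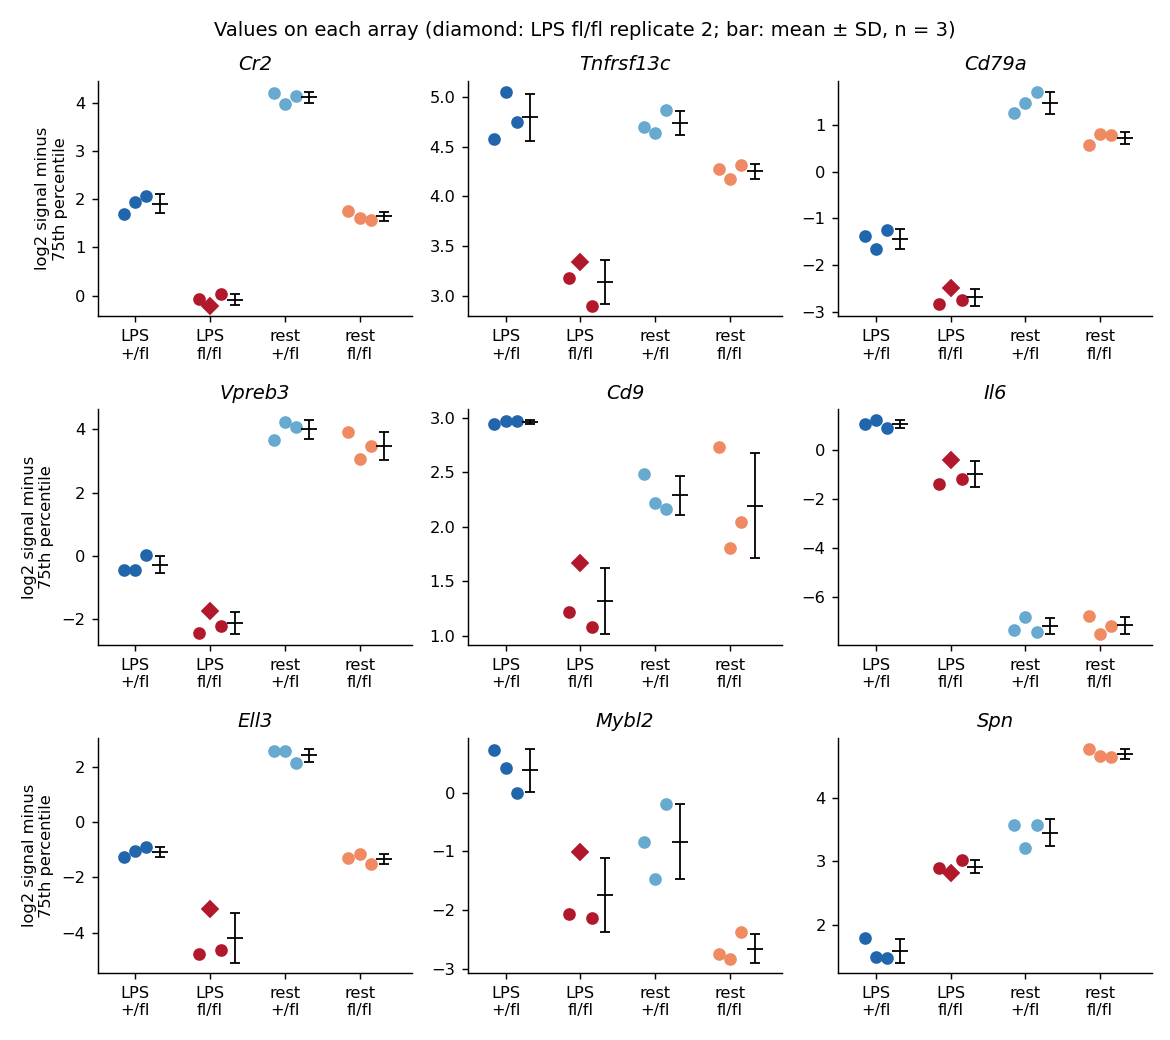
Values of 9 genes on each of the 12 arrays (vertical axes, log2 signal minus the 75th percentile; axes differ between panels and do not start at 0), with the LPS arrays on the left and the resting arrays on the right of each panel and the mean ± SD of 3 arrays beside the points. In all 9 panels the LPS fl/fl points (red, replicate 2 a diamond) do not overlap the LPS +/fl points (blue); Il6 lies below -6 in both resting groups.

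Marginal zone B cell genes were the list with the most calls. Of 19 genes 7 were lower and none higher, against 0.782% lower and 0.864% higher over all genes. The list's median was -0.74, against 0.04 over all genes. Without fl/fl replicate 2 the median was -0.97 with 6 lower, and the list's median on single arrays ran from -0.57 to -0.27 in fl/fl and from 0.30 to 0.55 in +/fl, relative to each gene's mean. Ackr3, a scavenger receptor for CXCL12 that marks marginal zone cells, was at -7.46, -4.88 and -7.35 on the fl/fl arrays and at -0.97, -0.39 and -0.61 on the +/fl arrays. This was the largest lower difference of all genes (-5.90, SE 0.67, adjusted p = 0.00952), it held without each array, and only 1 of the 3 fl/fl arrays read it above background. Cd9, a tetraspanin, was at 1.21, 1.66 and 1.08 against 2.94, 2.97 and 2.97 (-1.64, SE 0.23, adjusted p = 0.0161). The +/fl arrays agreed closely here, and the fl/fl arrays were all lower. Another Cd9 probe gave -1.49 (adjusted p = 0.008).

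Dtx1, a Notch target, was at 3.94, 3.62 and 3.99 against 4.79, 5.12 and 4.93 (-1.10, SE 0.14, adjusted p = 0.0132). Asb2, which encodes a ubiquitin ligase adaptor, was at -0.76, -0.40 and -1.07 against 0.39, 0.53 and 0.70 (-1.28, SE 0.27, adjusted p = 0.0497), and lost its call whichever array was left out. The semaphorin gene Sema7a was at 2.54, 2.86 and 2.91 against 4.36, 4.54 and 4.24 (-1.61, SE 0.25, adjusted p = 0.0248). Each of these groups was separate, with fl/fl below. Mzb1, which encodes a chaperone of antibody assembly in the endoplasmic reticulum, was at 2.90, 3.72 and 3.11 against 4.98, 4.79 and 4.52 (-1.52, SE 0.25, adjusted p = 0.0258) and stands in the plasma cell list too. Notch2 itself (0.31, adjusted p = 0.12), S1pr3 (-0.35, adjusted p = 0.31) and Cd1d1 (-0.02, adjusted p = 0.95) did not pass. Nor did Fcer2a, which the list's median also counts, at 2.84, 2.04 and 3.25 against 3.51, 3.68 and 3.93 (-0.99, adjusted p = 0.122). Fcer2a encodes CD23, which marks follicular rather than marginal zone B cells, so its lower level is not that of a marginal zone gene. The part of the CD21 gate in these values was not tested.

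Il6, an inflammatory cytokine that B cells make after LPS, was at -1.37, -0.39 and -1.16 on the fl/fl arrays and at 1.06, 1.23 and 0.92 on the +/fl arrays. It was 4.12-fold lower with no overlap (-2.04, SE 0.28, adjusted p = 0.0161; -2.33 without fl/fl replicate 2; adjusted p = 0.101 with the slide block). In resting cells Il6 was above background on no array of either genotype. Of 21 cytokine and chemokine genes measured, Il6 was the only one lower and Ltb the only one higher, with a median of 0.14. Ltb, a lymphotoxin chain needed for lymphoid tissue structure, was at 6.63, 6.39 and 6.87 against 5.75, 5.88 and 5.99 (0.75, SE 0.14, adjusted p = 0.0352). Il10 (-1.74, adjusted p = 0.072) and Tnf (0.33, adjusted p = 0.374) did not pass. The machinery of LPS sensing gave no call among 19 genes (median 0.06): Tlr4 differed by 0.57 (adjusted p = 0.34), Ly96, which encodes MD-2, by -0.70 (adjusted p = 0.068) and Tlr1 by 0.67 (adjusted p = 0.0553). None of 19 NF-kB subunit and feedback genes passed either, with a range of -0.37 to 0.66 and a median of 0.01.

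Among 17 activation and costimulation genes 2 were higher and none lower, with a median of 0.36. Spn, which encodes CD43, a sialoglycoprotein found on B-1 and activated B cells, was at 2.90, 2.82 and 3.03 on the fl/fl arrays and at 1.80, 1.49 and 1.47 on the +/fl arrays. The 2.51-fold higher level (1.33, SE 0.13, adjusted p = 0.00583) was called without each array in turn. Another Spn probe gave 1.65 (adjusted p = 0.0352). Icosl, the ligand of the T cell costimulator ICOS, was at 3.94, 3.24 and 4.03 against 2.62, 2.83 and 2.77 (0.99, SE 0.20, adjusted p = 0.0464), with fl/fl replicate 2 the lowest of its group. Another Icosl probe gave 1.68 (adjusted p = 0.00605). Of 18 chemokine and homing receptor genes, the integrin gene Itgb7 was higher, at 1.62, 1.30 and 1.37 against 0.80, 0.84 and 0.75 (0.63, SE 0.12, adjusted p = 0.0352), and the cannabinoid receptor gene Cnr2 lower, at -0.73, -0.59 and -0.82 against 0.19, -0.03 and 0.32 (-0.87, SE 0.16, adjusted p = 0.0352). A further Cnr2 probe gave -0.45 (adjusted p = 0.425). Among 13 B-1 cell genes Spn was higher and Plscr1, a phospholipid scramblase gene, lower (-1.04, SE 0.21, adjusted p = 0.0475), with a median of 0.46 and no other call. Plscr1 lost its call whichever array was left out.

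In the DNA replication list 6 of 45 genes were called lower in fl/fl cells and none higher, and 39 did not pass. Over all genes 0.782% were called lower and 7878 of 17127 differences were negative. In the list 44 of 45 differences were negative, with a median of -0.42. Without fl/fl replicate 2 the median was -0.54 with 8 called lower, and on slide 2 alone it was -0.63. Cdt1, which loads the replicative helicase, was at 3.42, 3.64 and 3.41 against 4.40, 4.50 and 4.47 (-0.97, SE 0.10, adjusted p = 0.00583), a call that held without each array. Gmnn, whose product geminin inhibits CDT1, was lower as well, at 2.25, 2.60 and 2.43 against 3.61, 3.42 and 3.43 (-1.06, SE 0.16, adjusted p = 0.0219). Of the 6 subunits of the replicative helicase 3 were lower, while Mcm3 (-0.39, adjusted p = 0.403), Mcm5 (-0.57, adjusted p = 0.0854) and Mcm6 (-0.41, adjusted p = 0.213) did not pass. Mcm2 was at 1.27, 1.70 and 1.01 against 2.21, 2.05 and 2.06 (-0.78, SE 0.16, adjusted p = 0.0449). Mcm4 was at 3.55, 3.67 and 3.54 against 4.28, 4.32 and 4.26 (-0.70, SE 0.10, adjusted p = 0.0161), and Mcm7 at 3.54, 3.64 and 3.48 against 4.37, 4.35 and 4.24 (-0.77, SE 0.12, adjusted p = 0.0226). Tk1, a thymidine kinase gene, was at -0.88, -0.66 and -0.97 against 0.43, 0.01 and 0.22 (-1.06, SE 0.16, adjusted p = 0.0217). In each of these 6 genes fl/fl replicate 2 was the highest of its group and still below every control.

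In the list of G1 to S control 2 of 27 were lower and none higher, where 0.782% of all genes were lower. The list was mixed, with a median of -0.12, 17 differences negative and 10 positive, up to 1.15. Without fl/fl replicate 2, 3 were called lower and 1 higher. Mybl2, which encodes the cell cycle transcription factor B-MYB, was at -2.07, -1.01 and -2.14 against 0.74, 0.42 and 0.00 (-2.13, SE 0.38, adjusted p = 0.034). Ccne1, the cyclin E1 gene, was at -1.06, 0.18 and -1.06 against 1.35, 0.82 and 0.78 (-1.63, SE 0.33, adjusted p = 0.0449). A further Ccne1 probe gave -0.74 (adjusted p = 0.371). Both genes were called without fl/fl replicate 2 and lost the call whichever other array was left out.

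Mitosis genes varied across the fl/fl arrays. None of 30 passed, although 29 of 30 differences were negative and the median was -0.86. The list's median was -1.0 on fl/fl 1 and -0.91 on fl/fl 3 but 0.29 on fl/fl 2, against 0.95, 0.17 and 0.34 on the +/fl arrays. Fl/fl 2 thus lay among the controls, and without it the list's median was -1.58 with 1 gene called lower. The list is dimmer than most, at a median level of -1.28 against -0.50 over all genes, and dim genes read high on fl/fl 2. The part of this in the list's value on that array was not tested. Aurkb, the kinase of the chromosomal passenger complex, was at -4.59, -2.77 and -4.64 against -1.71, -2.33 and -2.17 (-1.93, SE 0.56, adjusted p = 0.106; adjusted p = 0.0411 without fl/fl 2). Cenpe, which encodes a kinetochore motor, was at -0.93, 0.54 and -0.55 against 1.27, 0.65 and 0.89 (-1.25, SE 0.45, adjusted p = 0.156). Pttg1, which encodes securin, the inhibitor of chromatid separation, is in no list and was named after its values were seen, as a gene called without each array. It was at 1.24, 1.79 and 1.59 against 2.89, 2.94 and 3.00 (-1.40, SE 0.15, adjusted p = 0.00583).

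**Figure D3:**
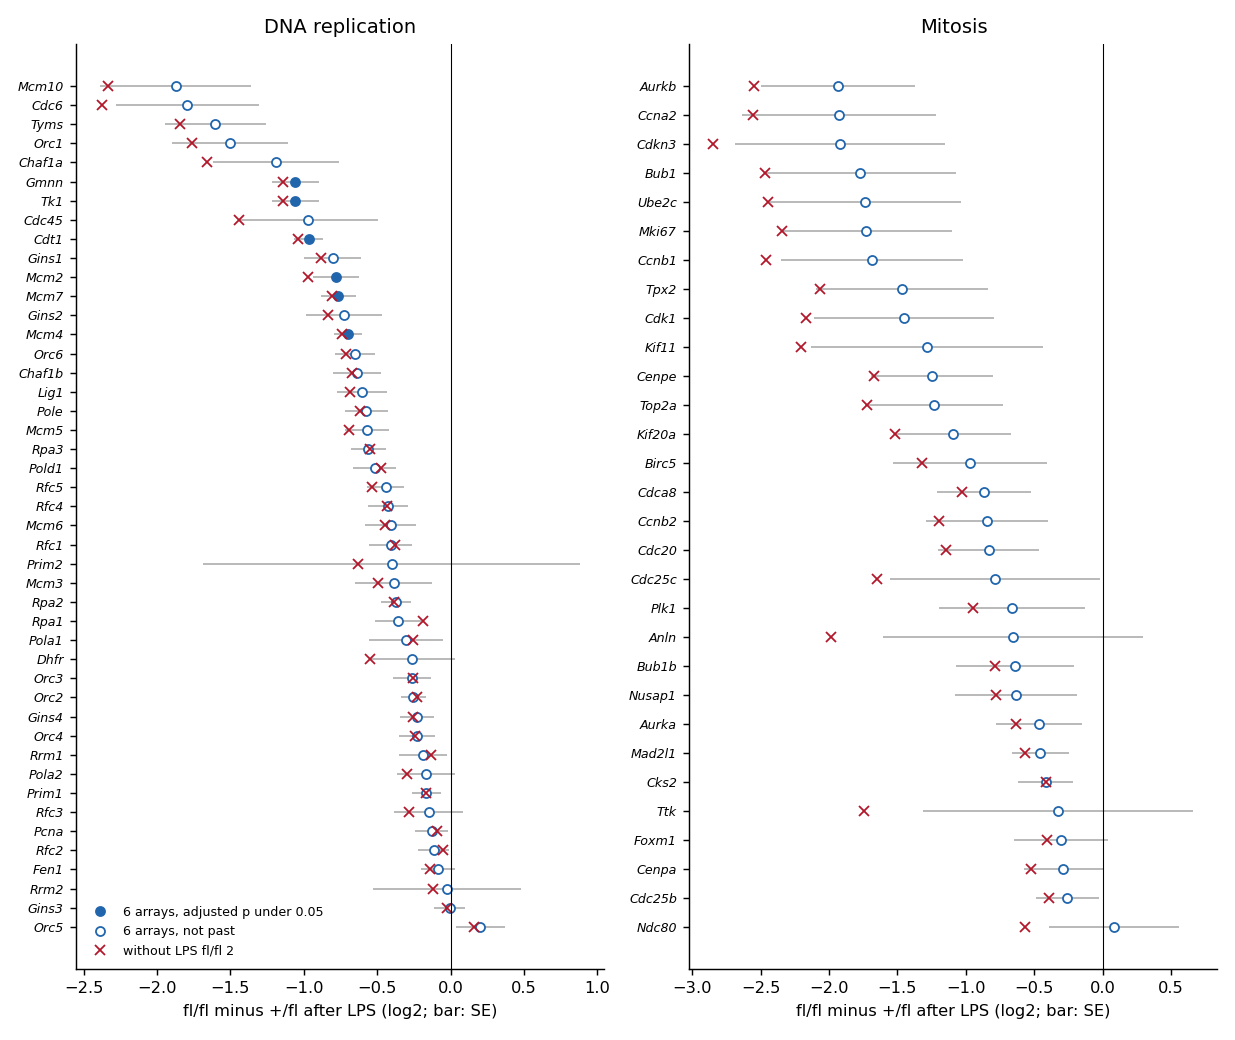
Difference between genotypes after LPS (horizontal axes, log2, fl/fl minus +/fl, bars ± SE) for each measured gene of the DNA replication list (45 genes, left) and the mitosis list (30 genes, right). Circles use all 6 LPS arrays and are filled where the adjusted p is under 0.05, crosses leave out fl/fl replicate 2; crosses lie farther left than circles for most mitosis genes, whose median moves from -0.86 to -1.58.

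Sequences just upstream of the transcription start were set beside these groups, from RefSeq promoters of GRCm38.p6 that run from 250 bases before to 50 bases after the start; 10804 of the 17127 genes had one. Both strands were searched for TCCC and GGGA spaced by 2 bases of any kind, an EBF1 motif, and for TTTCCCGC or TTTGGCGC, motifs of the cell cycle factors E2F; the EBF1 motif reads the same on both strands, and since TTTCCCGC also holds TCCC, a match to it can overlap the EBF1 motif. The E2F motifs were in 3.21% of all promoters, in 11 of 36 of the replication list (30.6%), in 7 of 99 of the genes called lower (7.07%) and in 2 of 91 of those called higher (2.20%). The EBF1 motif was in 1.25% of all promoters, 3 of 99 of those lower (BC028528, Pold4 and Cmip), 4 of 91 of those higher and 2 of 36 of the replication list (5.56%). Of the 15 promoters of the marginal zone list 2 held an E2F motif (13.3%) and none the EBF1 motif. The stretches shown are a replication gene and the gene with the largest difference, both with an E2F motif, then Pold4, a DNA polymerase subunit gene called lower (-1.28, adjusted p = 0.0132), and Cd22, not called (0.28, adjusted p = 0.332), both with an EBF1 motif, and Cd79a, whose 300 bases hold none of these motifs. Motifs are in capitals (GCGGGAAA is TTTCCCGC read from the other strand) and each stretch reads 5′ to 3′ along the gene's strand.
Mcm7 (chr5:138172016-138172073, minus strand, motif at -165 to -158 from the start): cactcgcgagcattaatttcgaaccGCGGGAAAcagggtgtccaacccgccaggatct
Ackr3 (chr1:90203933-90203979, plus strand, motif at -22 to -15 from the start): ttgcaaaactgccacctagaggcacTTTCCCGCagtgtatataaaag
Pold4 (chr19:4231659-4231718, plus strand, motif at -209 to -200 from the start): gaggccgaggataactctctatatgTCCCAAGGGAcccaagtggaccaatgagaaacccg
Cd22 (chr7:30879043-30879102, minus strand, motif at -49 to -40 from the start): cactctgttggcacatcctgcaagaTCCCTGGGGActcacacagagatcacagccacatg
Cd79a (chr7:24897377-24897496, plus strand, the last 120 bases before the start): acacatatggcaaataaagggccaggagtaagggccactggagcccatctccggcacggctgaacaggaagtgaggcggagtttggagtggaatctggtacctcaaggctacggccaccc
A match describes these letters only, and no match says nothing of the factor.

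In the metabolic and growth lists a few genes passed, all of them lower, where 0.782% of all genes were called lower. Of 17 glycolysis genes 3 were lower and none higher, with a median of -0.38. Tpi1 was at 4.02, 4.14 and 3.96 against 4.75, 4.87 and 4.80 (-0.76, SE 0.11, adjusted p = 0.0161). Ldha, which makes lactate from pyruvate, was at 5.96, 6.19 and 5.99 against 6.78, 6.92 and 6.60 (-0.72, SE 0.12, adjusted p = 0.0292). Pgk1 fell by 0.48 (SE 0.10, adjusted p = 0.0469), with separate groups like the other pair, and lost its call whichever array was left out. Of 20 genes of cholesterol and fatty acid synthesis the stearoyl-CoA desaturases Scd1 (-0.80, SE 0.15, adjusted p = 0.0363) and Scd2 (-1.17, SE 0.21, adjusted p = 0.0352) were lower, with a list median of -0.38. Both lost the call whichever array was left out. Scd2 was at 1.66, 1.67 and 1.76 in fl/fl, all below 2.97, 2.58 and 3.04 in +/fl cells. Among 23 genes of the MYC and ribosome biogenesis list the nucleolar gene Pes1 was lower (-0.56, SE 0.10, adjusted p = 0.0352). Pes1 lost its call whichever array was left out, and another Pes1 probe gave -0.48 (adjusted p = 0.13). In this list 21 of 23 differences were negative, against 7878 of 17127 over all genes, and the median was -0.26. All 3 lists are bright, with median levels of 3.90 for glycolysis, 3.20 for cholesterol and 4.91 for MYC genes, against -0.50 over all genes. The brightest 4282 genes had a median difference of -0.14, with 17 called higher and 61 lower. The part of brightness in these lists was not tested.

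Several programs of a stimulated B cell gave no call. None of 14 MHC class II genes passed (median 0.25), with H2-Eb1 nearest at 0.57 (adjusted p = 0.0549), none of 16 germinal centre and class switching genes (median -0.20), and none of 22 genes of the unfolded protein response (median -0.13). Of 16 plasma cell genes only Mzb1 passed, with a median of 0.03; Prdm1, the master regulator of antibody-secreting cells, differed by 0.11 (adjusted p = 0.85) and Xbp1 by 0.22 (adjusted p = 0.43). None of 17 regulators of other lineages passed, with a median of 0.37 (0.09 with the slide block). None of 16 p53 targets passed, although 14 of 16 differences were positive, with a median of 0.34, and Mdm2 gave 0.62 (adjusted p = 0.0827). All 18 differences of interferon-stimulated genes were positive, with a median of 0.86, and none passed. Stat2 came nearest, at 3.49, 3.29 and 3.35 against 2.08, 2.76 and 2.25 (1.01, SE 0.26, adjusted p = 0.0829), followed by Oas2 at 0.89, 1.32 and 1.40 against -0.60, -0.17 and 0.07 (1.44, SE 0.47, adjusted p = 0.135). Those 2 groups were separate, and the list's medians on the +/fl arrays, -0.83, -0.06 and -0.40, spread more than those on the fl/fl arrays, 0.34, 0.49 and 0.58.

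**Figure D4:**
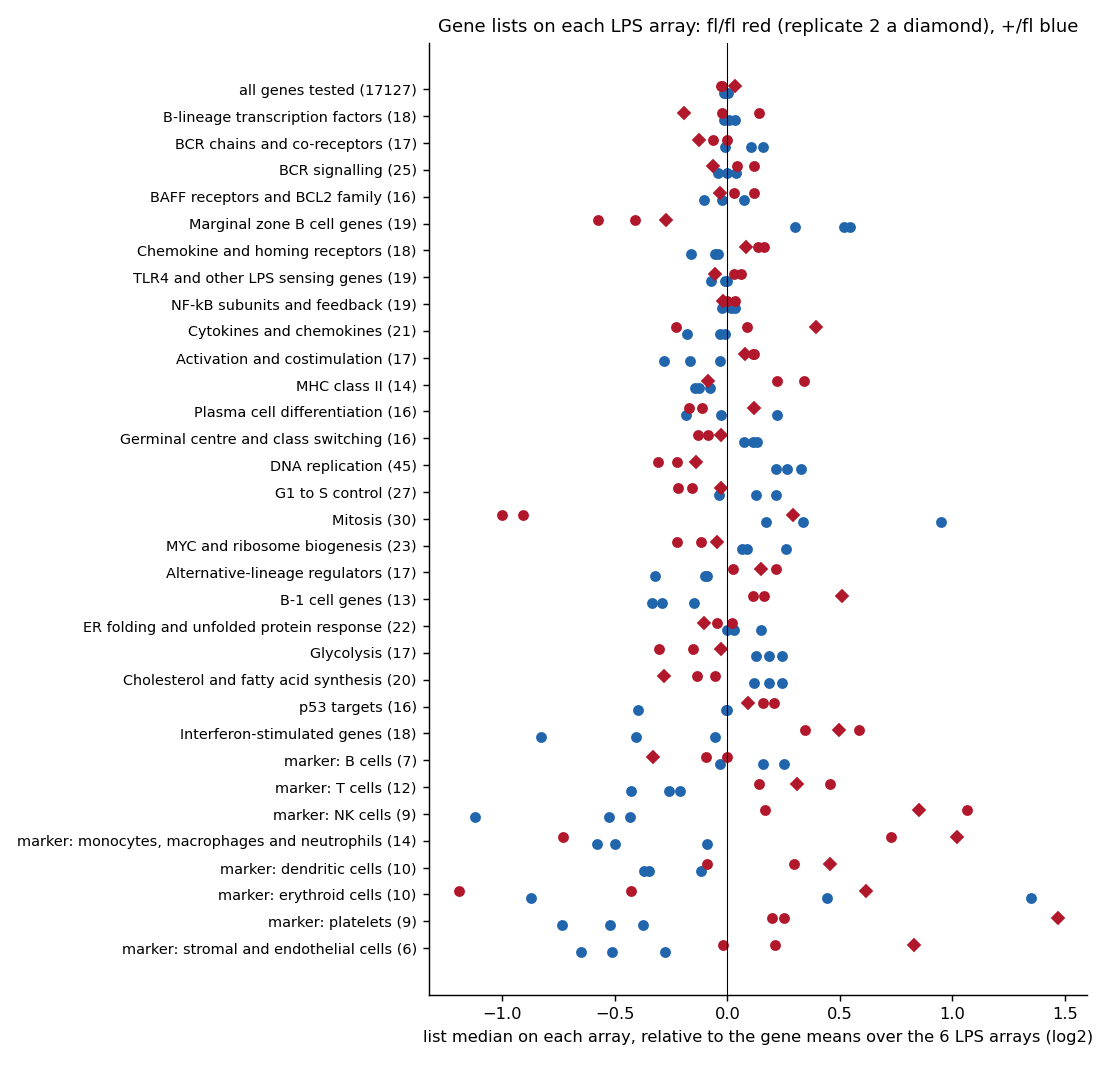
Median of each gene list on each of the 6 LPS arrays (horizontal axis, log2, each gene taken relative to its mean over the 6 arrays; number of measured genes in brackets), with fl/fl arrays in red (replicate 2 a diamond) and +/fl arrays in blue. The groups are separate for marginal zone, DNA replication and glycolysis genes, but so they are for many other lists. Among these, cholesterol and MYC genes have fl/fl below, and activation, p53 target, interferon-stimulated and NK cell genes have fl/fl above. For mitosis genes fl/fl replicate 2, at 0.29, lies among the +/fl arrays.

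Of the 12 largest lower differences chosen by the rule, those in no list were in Ell3, Ttc39c, Ak7, 5033430I15Rik, Gcat and Ahr. Ell3, of the ELL family of transcription elongation factors, was at -4.78, -3.15 and -4.62 on the fl/fl arrays and at -1.27, -1.05 and -0.91 on the +/fl arrays (8.61-fold lower, -3.11, SE 0.36, adjusted p = 0.0106). Ttc39c was at -0.77, 0.36 and -0.61 against 2.48, 1.40 and 2.10 (-2.33, SE 0.42, adjusted p = 0.0352). Both sets were separate, with fl/fl replicate 2 nearest the controls. Ahr, the aryl hydrocarbon receptor gene, was at -1.69, -0.76 and -1.16 against 0.50, 0.58 and 0.54 (-1.74, SE 0.26, adjusted p = 0.0182), and Gcat, which encodes a mitochondrial enzyme of threonine breakdown, at -0.50, -0.43 and -0.89 against 1.11, 1.10 and 1.21 (-1.75, SE 0.22, adjusted p = 0.0132). The adenylate kinase gene Ak7 differed by -2.09 (SE 0.28, adjusted p = 0.0161) and the unnamed transcript 5033430I15Rik by -1.76 (SE 0.30, adjusted p = 0.0301). Another Ak7 probe gave -1.81 (adjusted p = 0.129).

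Of the 12 largest higher differences chosen by the rule, 10 were in genes above background on at most 1 control array. Krt2, a keratin gene, was at -4.77, -2.68 and -2.87 in fl/fl and below background on all +/fl arrays, so at least 4.04-fold higher (adjusted p = 0.0219). Chil5, a chitinase-like gene, was at least 2.12-fold higher (adjusted p = 0.0257) by the same reckoning, which takes the lowest signal well above background on each control array as the bound. The transcripts AK042175, AK032340, 1700034I23Rik and AK079237 were likewise read on no control array, with bounds of 2.50, 2.36, 1.31 and 1.21. Such bounds apply to the scanner's own background correction and are no minimum under another. Mroh3 (2.02), Atp8b4 (1.96), AK086961 (1.86) and 4933403O03Rik (1.85) were above background on 1 of 3 control arrays. A further Atp8b4 probe gave 0.48 (adjusted p = 0.787). With limma's normexp background correction in place of the scanner's own, under which no gene passed, all of these 10 differences were negative. Once the local background of 16 outlying spots on +/fl 2 was set to the array's median they were positive, from 0.14 for AK079237 to 0.88 for Krt2, and of the 10 only Krt2 passed. Tnnt2, the cardiac troponin T gene, was read on every LPS array, at -0.51, -1.12 and -0.48 against -3.10, -2.32 and -2.64 (1.98, SE 0.26, adjusted p = 0.0138), and kept its call with the slide block (2.35, adjusted p = 0.0388). Another Tnnt2 probe gave 2.81 (adjusted p = 0.0163). Adipoq, the adiponectin gene, was at -2.91, -2.27 and -1.88 against -3.96, -4.07 and -3.98 (1.65, SE 0.26, adjusted p = 0.0257).

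Markers of other cells were read beside these values, since most are dim and the dimmest 4282 genes had a median difference of 0.51. For 9 NK cell markers measured the differences ran from 0.89 to 1.72, with a median of 1.32, and only Klrk1 passed, at -2.74, -3.26 and -3.80 against -4.64, -4.44 and -5.03 (1.44, SE 0.27, adjusted p = 0.0388; 0.0681 without fl/fl 2). Their summed level (log2 of the summed signals) was 2.38 to 3.24 on the fl/fl arrays and 1.43 to 1.84 on the +/fl arrays. Of 12 T cell markers none passed (median 0.68; summed level 3.88 to 4.19 against 3.36 to 3.62). Of 10 dendritic cell markers Siglech, a plasmacytoid marker, was higher, at -1.26, -0.93 and -0.82 against -3.06, -2.15 and -2.70 (1.64, SE 0.34, adjusted p = 0.0494), with summed levels of 6.13 to 6.54 against 5.43 to 6.20. None of 14 myeloid markers passed (median 0.71; 4.29 to 6.28 against 3.55 to 6.51), nor any of 10 erythroid (median -0.79; 4.05 to 5.19 against 4.80 to 6.67), 9 platelet (median 0.73; 0.83 to 1.41 against -0.05 to 0.66) or 6 stromal markers (median 0.67; 0.92 to 1.20 against 0.14 to 0.38). The summed levels of NK, T, platelet and stromal markers did not overlap between genotypes, with fl/fl above. Of single genes 33.2% did not overlap, 15.3% with fl/fl above, but a sum over several genes is not a like measure. With slide as a block the medians of these lists were 0.86 for NK, 0.12 for T, 1.41 for platelet and 0.62 for stromal markers. The part of these markers' cells in the genes called higher was not tested.

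Set against resting cells, where 1513 genes (8.83%; 4.66% higher and 4.17% lower) differed by genotype, 81 of the LPS calls were also called with the same sign, 28.7% of the LPS calls and 5.35% of the resting ones. These were 54 of the 134 lower genes (40.3%) and 27 of the 148 higher ones (18.2%). Cr2 (-2.46 in resting cells, adjusted p = 2.9e-05), Ell3 (-3.75), Mzb1 (-1.86), Sema7a (-1.87), Dtx1 (-1.12), Gmnn (-1.10), Tk1 (-1.38) and, on the higher side, Spn (1.23) and Itgb7 (0.75) were called in both states. So was Ackr3, lower in fl/fl, which was above background on no resting fl/fl array and on all 3 resting +/fl arrays. Cd9 (-0.09), Plscr1 (0.12) and Siglech (-0.06), read on all resting arrays, had differences near 0 there. Il6, Tnnt2 and Adipoq were above background on no resting array of either genotype, so a resting difference could not be measured. Tnfrsf13c (-0.48, adjusted p = 0.073), Vpreb3 (-0.52) and Ahr (-0.64) were not called at rest. A difference between the states is called only by its own test, the interaction, which gave 28 genes of all tested (0.163%), 18 of them positive (0.105%) and 10 negative (0.0584%). None of the genes named by rule was among them; the nearest were Ikzf3 (-1.18) and Scd1 (1.24), both at an adjusted p of 0.062, Tnfrsf13c (-1.17, adjusted p = 0.065), Atp8b4 (2.45, adjusted p = 0.066), and Il6 (-2.07) and Tnnt2 (1.95), both at 0.068. Il6 and Tnnt2 were read on no resting array. The interferon-stimulated genes had a median of -1.06 in resting cells and 0.86 after LPS, and for Stat2 and Oas2 the interaction did not pass (0.99, adjusted p = 0.187, and 2.44, adjusted p = 0.114). Most lists with a low median after LPS had one in resting cells too, where the median of all genes was 0.05. The resting medians were -1.47 for marginal zone, -0.53 for DNA replication, -2.03 for mitosis, -0.34 for glycolysis and -0.24 for MYC and ribosome biogenesis genes. For cholesterol and fatty acid synthesis genes the resting median was -0.06. How the list medians differ between the states was not tested.

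**Figure D5:**
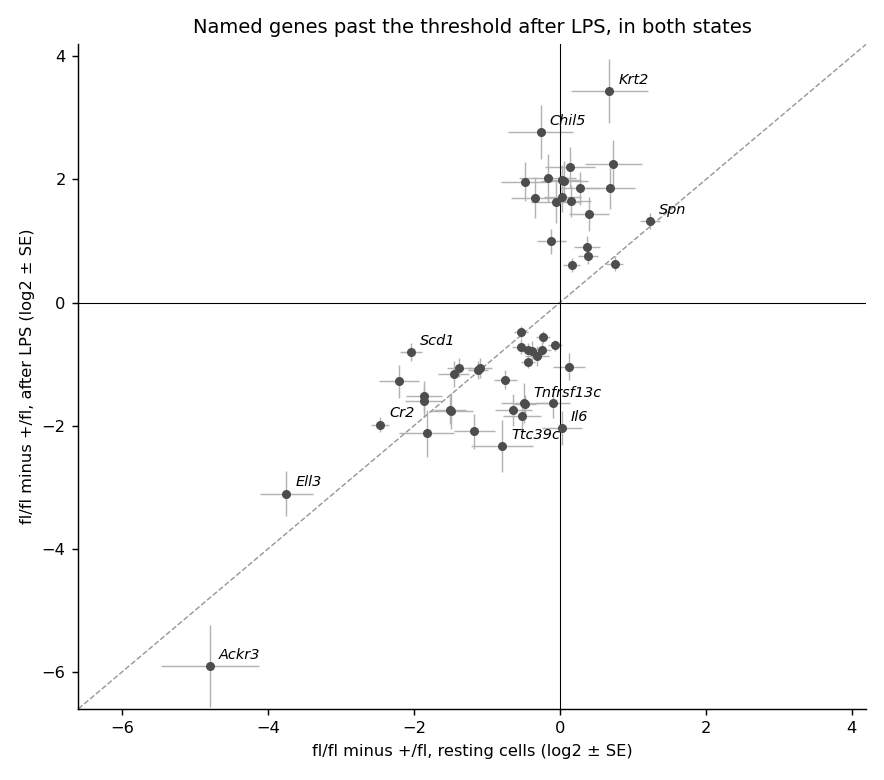
Genotype difference in resting cells (horizontal axis) and after LPS (vertical axis), both log2 fl/fl minus +/fl with bars of 1 SE, for the 54 genes named by rule that were called after LPS; the dashed line marks equal differences. Ell3 and Cr2 lie near the line on the lower side. Points of genes not above background in a group, such as Il6, Tnnt2, Adipoq and Krt2 in both resting groups and Ackr3 in resting fl/fl cells, show the measured log2 values and are no measure of the resting difference.

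Only 12 of the 282 genes were called without each of the 6 LPS arrays in turn. The 7 lower ones were Ackr3, Cr2, Tnfrsf13c, Cdt1, Pttg1, Lat2 and BC028528, and the 5 higher ones Spn, Amz2, TC1431688, ENSMUST00000100796 and AK078072. Lat2, which encodes a membrane adaptor of antigen receptor signalling, was at 0.51, 0.69 and 0.51 against 1.69, 1.81 and 1.58 (-1.12, SE 0.13, adjusted p = 0.0106). Amz2, an archaemetzincin gene, was at 2.05, 2.23 and 2.06 against 0.96, 1.10 and 1.03 (1.09, SE 0.10, adjusted p = 0.00449). TC1431688 was at 0.31, 0.26 and 0.42 against -0.97, -0.86 and -1.04 (1.28, SE 0.14, adjusted p = 0.00711), and its probe starts 1367 bases from that of Amz2 on chromosome 11 (mm7). Those outside the rule were chosen after their values were seen. AK078072 was read on no control array and was at least 1.14-fold higher with the scanner's own background correction. Its difference and that of ENSMUST00000100796 (1.49) were negative with the normexp correction.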

How the data were processed

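The data are scanner output of 12 Agilent 1-colour mouse arrays (design 014868, probe positions on mm7), 3 per group, on 3 slides of 4. Per the file headers the values are intensity: each spot's Cy3 signal after background subtraction by the scanner software, Feature Extraction 9.5.3.1 (9.1 per the submitters' processing notes). The deposited value table, also intensity on a linear scale, has in its 12 columns a common median of 30.8, as after normalization to 1 distribution by the authors (how is not stated in the labels); it follows the scanner values within each array (Spearman 0.9999 to 1.000), and it served as an alternative. The precision is limited by the number of arrays.

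Spots that the scanner software marked as outliers or non-uniform were left out, which removed 87 of 41174 probes, and replicate spots were averaged. Signals were divided by the array's 75th percentile before log2 was taken. Only probes read well above background on 3 or more of 12 arrays were kept: 25677 probes of 17127 genes, each gene read from its brightest probe. Names came from a RefSeq list of genes through the accession (23082 probes), the symbol (6582) or an older symbol (3073); 8437 probes kept the files' name. Of the called genes 100 have several probes, and for 19 of these the probes differ in sign. A model with 1 mean for each of the 4 groups used all 12 arrays in limma 3.58.1 (R 4.3.3); data.table (version 1.17.8), pandas 2.3.3 and scipy 1.17.1 (exact permutation tests) were used too, and the code was tested on simulated data. Ebf1 probes were adjusted over all probes.

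The rule named Ebf1, the B cell markers and gate genes, the 12 largest differences in each direction among genes called with and without LPS fl/fl replicate 2, with separate groups and the higher group above background on all its arrays, and in each of 33 gene lists the called members or else the 2 with the smallest p; some genes under this rule are not reported here. The comparison, the lists and the rule were chosen with earlier results of these data known. Summed marker levels are log2 of summed scaled signals. Alternatives covered background correction, scaling, filters, blocks, weights, the probe rule and leaving out each LPS array. The resting +/fl array 3 and LPS +/fl array 1 share a number in their sample names; whether they share a mouse is not given.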

Additional observations from a re-analysis of the deposited data

Results flagged for a closer look

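For 3 genes called after LPS the genotype difference itself differed between LPS-treated and resting cells by limma's interaction test, each with opposite signs in the states. They were chosen after their values were seen. Atp10d, a phospholipid-transporting ATPase gene, was at 0.14, 0.26 and 0.35 on the fl/fl arrays after LPS and at 1.10, 1.03 and 1.25 on the +/fl arrays (-0.88, SE 0.10, adjusted p = 0.0106), and at 2.30, 2.25 and 2.21 against 1.22, 1.47 and 1.34 in resting cells (0.91, adjusted p = 0.00317), an interaction of -1.79 (adjusted p = 0.00274). Tlr3, the receptor for double-stranded RNA, was at -4.51, -4.46 and -4.29 against -6.25, -5.56 and -5.63 after LPS, read on no control array and so at least 2.04-fold higher (adjusted p = 0.0324, and 0.0523 without fl/fl replicate 2), and at -4.32, -3.95 and -3.83 against -1.86, -2.61 and -2.54 at rest (-1.70, adjusted p = 0.00693), an interaction of 3.09 (adjusted p = 0.0114). The transcript 1810055G02Rik differed by -0.64 (adjusted p = 0.034) after LPS and 0.52 (adjusted p = 0.0252) at rest, an interaction of -1.16 (adjusted p = 0.0348). None of the 3 was called with slide as a block. With limma's normexp background correction the Tlr3 difference after LPS was negative. The bound for Tlr3 and its opposite signs thus hold for the scanner's own correction and not for every other.

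A further pair was called in both states with opposite signs and did not pass the interaction test: B3gnt8 (1.35 after LPS, -1.08 at rest, interaction adjusted p = 0.0557) and Usp24 (-0.47 and 0.38, interaction adjusted p = 0.0506).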

How the results depend on the processing

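The count of 282 genes moved with most choices. It was 0 with normexp background correction at an offset of 50, under which limma left 313 genes at an unadjusted p under 0.05 against 3675 as reported, and 402 with the same correction once spots whose local background exceeded 2 times the array's median were set to that median, which touched 16 spots on +/fl 2 and none on the other LPS arrays. It was 136 with quantile normalization, 135 with the deposited values, 194 with median scaling, 26 with no filter and 519 with a filter on all 12 arrays. A fit of the 6 LPS arrays alone called 31, slide as a block 5, slide as a block without LPS fl/fl replicate 2 103, slide as a random block 309, a trended and robust variance 638 and array weights 2762. At an adjusted p of 0.01 there were 10 genes, and 129 were at least 2-fold apart. Leaving out 1 LPS array gave 15 to 217 calls. The causes of the other changes were not tested.

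After LPS, same-numbered fl/fl and +/fl arrays deviated from their group means together with correlations of only 0.02, -0.03 and 0.12. Whether resting and LPS arrays are paired was not tested. With the replicate number as a block 30 genes were called.

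Under normexp at an offset of 50 the differences changed sign for Krt2 (-0.10), Chil5 (-0.50), AK042175 (-0.48), 1700034I23Rik (-0.72), Mroh3 (-0.26), AK032340 (-0.48), Atp8b4 (-0.47), AK086961 (-0.40), 4933403O03Rik (-0.41), AK079237 (-0.86), Pgk1 (0.0054), Klrk1 (-0.33), B3gnt8 (-0.25), Tlr3 (-0.69), ENSMUST00000100796 (-0.14) and AK078072 (-0.72). No other alternative, the repaired normexp included, turned the sign of a named called gene. Of the 54 called genes named by rule 44 kept their call without fl/fl 2, 19 without fl/fl 1, 22 without fl/fl 3, 22 without +/fl 1, 12 without +/fl 2, 5 without +/fl 3 and 4 with the slide block. The 44 are no test of fl/fl 2, since the rule took the 12 largest differences in each direction only from genes called without that array. Over all 282 calls, 139 were kept without fl/fl 2, 52 without fl/fl 1 and 74 without fl/fl 3. Neither Ebf1 probe passed under any alternative; the NM_007897 probe turned to -0.40 with median scaling.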

Other observations

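The genes called after LPS were also placed along the chromosomes. Ebf1 lies on chromosome 11. Within 10 Mb of the Ebf1 probe (mm7) 2 of 147 genes were called after LPS (1.36%, against 1.65% of all genes), Pttg1 and the chaperone gene Hspa4 (-0.53, adjusted p = 0.0499), both lower. Within 5 Mb 1 of 58 was called (1.72%), Pttg1. Over chromosome 11 as a whole it was 12 of 1432 (0.838%), and chromosome 2 had the highest share, 33 of 1326 (2.49%). These shares are descriptions, with distances chosen after the data were seen.

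The widest difference of all genes that did not pass was in Gdpd3, with means of 1.82 in fl/fl and -4.67 in +/fl cells after LPS (6.48, SE 1.76, adjusted p = 0.0892) and a resting difference of 2.79 (adjusted p = 0.335).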
